A study of Mus musculus with 2 samples.

Results

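The levels of 9 genes of interleukin-6 and leukemia inhibitory factor signalling were measured cell by cell in the celiac and superior mesenteric ganglia of the mouse, the sympathetic ganglia in front of the aorta that supply the abdominal organs. The genes were the ligands Il6, Lif and Cntf, the receptor subunits Il6st, Il6ra, Lifr, Osmr and Cntfr, and the feedback inhibitor Socs3. They were chosen by name, not by their values, and all 9 were found among the 32183 genes of the count tables. The series holds 2 libraries of 1 group, labelled CGSMG1 and CGSMG2, made with 10x Genomics 3' v3.1 chemistry from ganglia that had been digested and triturated. In all, 20 mice of 7 to 8 weeks were used, males and females in equal number, and the labels name no treatment. The sources used here do not name the strain or say which animals went into which library. With 1 group, populations could be compared only with each other inside each suspension, and p-values rest on the spread between these libraries, which may be technical only.

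Cytokines of this family signal through receptors that share the subunit gp130, the product of Il6st. Interleukin-6 binds its own receptor subunit, encoded by Il6ra, which then joins gp130. Leukemia inhibitory factor uses gp130 with the receptor encoded by Lifr, and ciliary neurotrophic factor adds the subunit encoded by Cntfr, which is anchored to the membrane by a lipid. Oncostatin M uses gp130 with the subunit encoded by Osmr, and in the mouse it acts mainly through that pair. The receptors activate JAK kinases and the transcription factor STAT3, which induces Socs3, whose product binds gp130 and the kinases and ends the signal. In cultured sympathetic neurons, leukemia inhibitory factor and ciliary neurotrophic factor are known to lower noradrenergic genes and raise cholinergic and neuropeptide genes. Schwann cells are the classic source of ciliary neurotrophic factor in nerve.

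Library 1 held 94521010 unique molecular identifiers (UMIs, counts of captured RNA molecules), and library 2 held 95235439. Of all cell barcodes, 23673 were kept, and they fell into 15 named populations with 20 or more cells in each library, from 65 lymphatic endothelial cells to 4551 fibroblasts. Population names stand for cells like those types by their markers, except Malat1-high glia, a cluster of 2539 glial cells that satellite and Schwann cell markers did not part, called by its Malat1 level (120400 against 67090 CPM in satellite glia). The neurons compared were 84 Shox2-rich and 141 Rxfp1-rich cells. Their neuron markers summed to 25440 and 37210 CPM, against 1630 to 4554 CPM in the non-neuronal classes, and Th, the rate-limiting enzyme of noradrenaline synthesis, reached 297 and 250 CPM, against 60.3 to 148 CPM. Another 1468 neuron-like droplets, most with few UMIs (a median of 2133 in library 1 and 2115.5 in library 2) or led by markers of other cells, were left out of the comparisons, although their Th level was higher, at 510 CPM. Of the barcode sequences, 64 occurred in both libraries.

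Levels are given as CPM, UMIs per 1000000 of a population and library, from a random set of each cell's UMIs, drawn with probability 0.5, that was not used for clustering. Over all UMIs of all deposited barcodes, before doublets were removed, Lif had 154 in library 1 and 153 in library 2 and Il6 had 258 and 290, so both were rare. Lifr had 15201 and 15575, Il6st 15969 and 17116, and the other members between 2051 and 6493 in a library. Each population was tested against the mean of the other populations in 1 fit over 16519 genes. Of the 135 tests of members, 86 passed an adjusted p of 0.05, 46 higher and 40 lower, while 36.9% of all tests of all genes passed. No test of the difference between the members and all genes was made. The higher calls include those of Il6 and Lif, which passed the low-count filter through populations where they are high. Those calls are no separate support. Against the sum of all other cells, in which the abundant populations weigh most, 107 passed, 30 higher and 77 lower. The share over all genes was not computed for that reference, and 36.9% does not apply to it. Fibroblasts and macrophages led with 8 of 9 members each, against 50.2% and 47.1% of all genes. Members called numbered 7 in blood endothelial cells (43.4% of all genes), 7 in dendritic cells (48.4%), 7 in satellite glia (49.6%), 7 in Malat1-high glia (44.6%) and 7 in Rxfp1-rich neurons (52.2%). Shox2-rich neurons had 6 (46% of all genes), perineurial or epineurial cells 6 (43%), pericytes or smooth muscle cells 6 (36.9%) and non-myelinating Schwann cells 5 (37.3%). The fewest were called in the remaining populations, with 4 in mast cells (10.4% of all genes), 3 in T cells (16.6%), 3 in lymphatic endothelial cells (9.36%) and 2 in myelinating Schwann cells (17.9%). Fitted fold changes use a scaling factor for each sum of UMIs, between 0.744 in dendritic cells of library 1 and 1.23 in Shox2-rich neurons of library 1, so a fold change can differ from the ratio of the CPM values.

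**Figure D1:**
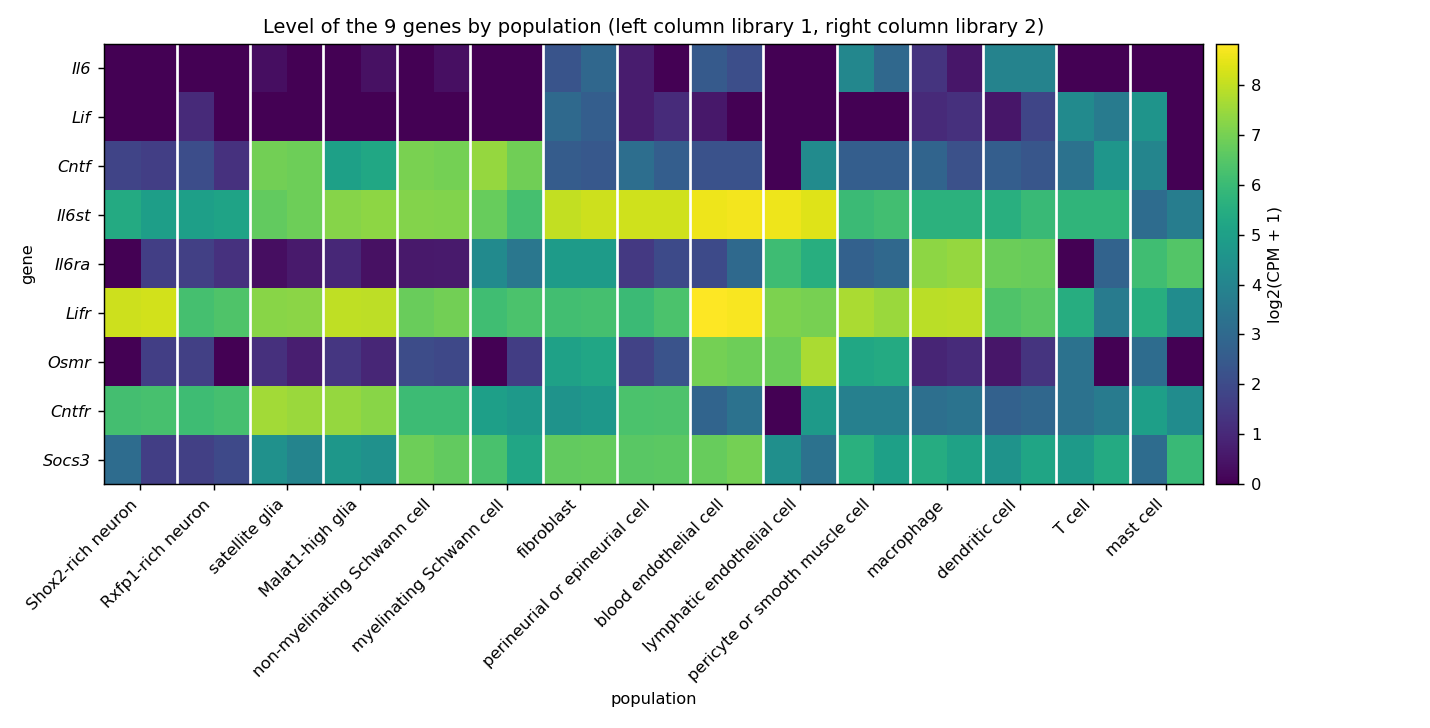
Level of each of the 9 genes, as the colour of log2(CPM + 1), in 15 populations (columns), with library 1 on the left and library 2 on the right of each population. Cntf is bright in satellite glia and Schwann cells, Il6ra in macrophages and dendritic cells, Osmr in endothelial cells, and Il6 and Lif are dark in both neuron types.

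Il6, the gene of interleukin-6, was found in cells classed as dendritic, mural cells of vessels, fibroblasts and blood endothelium. Dendritic cells held 14.4 CPM in library 1 and 14.5 CPM in library 2 (33 and 39 UMIs). Pericytes or smooth muscle cells held 16.0 and 6.86 CPM, fibroblasts 3.87 and 6.62 CPM, and blood endothelial cells 4.70 and 3.37 CPM. These 4 populations were each higher than the mean of the others, with adjusted p of 2.17e-19 in dendritic cells, 9.53e-13 in pericytes or smooth muscle cells, 1.63e-11 in fibroblasts and 3.56e-06 in blood endothelial cells. Fold changes are left out because several populations held no Il6 UMI. Il6 passed the low-count filter through populations where it is high, so these p-values are no separate support for its place there. Dendritic cells were not called apart from pericytes or smooth muscle cells (log2 fold change 0.68, adjusted p = 0.0821), pericytes or smooth muscle cells were above fibroblasts (0.92, adjusted p = 0.0201), and fibroblasts were not called apart from blood endothelial cells (adjusted p = 0.241). Over all 105 pairs of populations, 8.04 to 64.3% of genes passed such a test, with a median of 39% and 38% of all tests together.

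No Il6 UMI was counted in either neuron type. Counts of 0 allow up to 7.63 and 6.31 CPM in Shox2-rich neurons and 3.27 and 4.23 CPM in Rxfp1-rich neurons (3 counts of each sum). These limits lie below the level in dendritic cells. Over all UMIs, Il6 was also at 0 in both types, with limits of 1.63 and 2.12 CPM in Rxfp1-rich neurons, against 3.70 and 6.41 CPM in fibroblasts and 4.82 and 3.63 CPM in blood endothelial cells. The limits of 3.81 and 3.15 CPM in Shox2-rich neurons lie below blood endothelial cells in both libraries but below fibroblasts in library 2 only. However, Il6 UMIs sat in only 43 of 1856 blood endothelial cells and 94 of 4551 fibroblasts. The limits do not cover such uneven spread. Counts of 0 in 84 Shox2-rich and 141 Rxfp1-rich cells thus do not settle whether neurons lie below these 2 classes. Satellite glia, with far more UMIs, held 0.262 and 0 CPM.

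Il6 was unevenly spread within the classes that held it. Among dendritic cells, the cluster led by Retnla and Lyz1 held 25.4 and 27.5 CPM, and the cluster led by Irf8 and Xcr1, genes of cross-presenting dendritic cells, held 2.71 and 2.84 CPM. The Retnla cluster was classed as dendritic by 8 raised markers, but held only 1 of them, Cd209a, among its 10 leading genes, and others of the 10 (Lyz1, Ear2 and Ccl6) are known from monocytes and macrophages. The class name is thus less sure for the cluster with most of the Il6. Among mural cells, the cluster led by Abcc9 and Rgs5, genes of pericytes, held 41.9 and 15.9 CPM, and the Acta2 and Myh11 cluster, led by genes of contractile smooth muscle, held 2.37 and 1.66 CPM. Of the fibroblasts, the C7 and C3 cluster held 14.4 and 17.2 CPM. The Cxcl1 and Smim41 cluster held 1.65 and 8.03 CPM, so its libraries differed. These clusters were found in the same data and no test was made between them.

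Few cells carried most of the Il6 UMIs. Over all UMIs, 47 of 727 dendritic cells held the 131 Il6 UMIs of that class, up to 22 in a cell, and 1% of the cells held 57.2% of them. In fibroblasts, 94 of 4551 cells held 191 Il6 UMIs, with 74.9% in 1% of the cells. In pericytes or smooth muscle cells, 31 of 1217 cells held 86. The Il6 levels of these classes thus describe small numbers of cells.

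Il6 lies on mouse build mm10 (GRCm38) at chr5:30013114-30019981 on the plus strand. The 250 bases before its RefSeq start (GRCm38.p6, chr5:30012864-30013113, plus strand) are shown because Il6 is a textbook target of NF-kB and AP-1, factors that tissue dissociation is known to activate. Capitals mark matches to TGANTCA (AP-1), which starts 249 bases before the start and reads alike on both strands, and to GGANTTTCC (NF-kB), 43 bases before it. Both strands were searched, and the matches do not overlap.
Il6 promoter: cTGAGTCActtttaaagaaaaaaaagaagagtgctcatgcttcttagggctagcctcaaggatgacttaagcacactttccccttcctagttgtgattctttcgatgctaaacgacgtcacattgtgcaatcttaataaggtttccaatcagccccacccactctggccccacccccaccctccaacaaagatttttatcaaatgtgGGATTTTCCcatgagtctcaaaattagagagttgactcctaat
Of 32851 RefSeq promoters, 6.75% held TGANTCA and 1.07% held GGANTTTCC in the same window. A match is a description of letters and not a bound site. Lif and Cntf also held TGANTCA, 228 and 245 bases before their starts, and none of these motifs was found before the starts of the 5 receptor genes.

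Lif, which encodes leukemia inhibitory factor, was mainly counted in fibroblasts. Fibroblasts held 7.07 and 5.17 CPM (64 and 50 UMIs), higher than the mean of the other populations (adjusted p = 1.20e-15) and above dendritic cells, with 0.437 and 2.61 CPM (log2 fold change 1.74, adjusted p = 0.00503). T cells held 17.8 and 11.8 CPM, but on 2 UMIs in each library, and mast cells held 22.8 and 0 CPM, on 3 UMIs. The T cell level passed the test against the mean of the other populations (adjusted p = 9.26e-04) but not with DESeq2 (adjusted p = 0.133) or against the sum of all other cells (adjusted p = 0.243). Lif was also called higher than that mean in mast cells (adjusted p = 0.00859), in dendritic cells (0.00400) and in macrophages (0.00975), which held 1.09 and 1.34 CPM, on 5 and 6 UMIs. That mean is taken on the log scale and includes populations without a Lif UMI. The log2 difference from it changed sign between the libraries in mast cells (3.78 and -0.75) and in dendritic cells (-0.56 and 1.24). In macrophages it was 0.02 and 0.57. Lif, like Il6, passed the low-count filter through populations where it is high, so its p-values here are no separate support. Neither T cells and mast cells (adjusted p = 1) nor mast cells and fibroblasts (adjusted p = 0.815) were called apart. Lif was at 0 UMIs in Shox2-rich neurons, satellite glia, Malat1-high glia and both Schwann cell classes, and Rxfp1-rich neurons held 1 UMI. These counts of 0 allow up to 7.63 and 6.31 CPM in Shox2-rich neurons, above the fibroblast level. The limits in myelinating Schwann cells, 6.61 and 6.09 CPM, lie above it in library 2. Over all UMIs, Lif was again at 0 in Shox2-rich neurons, with limits of 3.81 and 3.15 CPM, against 6.1 and 5.3 CPM in fibroblasts.

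Within fibroblasts Lif and Il6 were highest in different clusters. The Fat3 cluster held 17.4 and 9.66 CPM of Lif, the Cxcl1 and Smim41 cluster 9.55 and 6.88 CPM, the Apod and Lum cluster 5.48 and 4.58 CPM, and the C7 and C3 cluster, the highest for Il6, 3.76 and 1.84 CPM. The Fat3 cluster was small and shallow (223 and 220 cells, a median of 3407 UMIs), so its Lif level rests on few UMIs. Its name is also less sure, with 5 fibroblast markers raised, against 10 or 11 in the other fibroblast clusters. Lif was less concentrated than Il6, with 213 UMIs in 192 of 4551 fibroblasts, and 31.5% of them in 1% of the cells. Cells with UMIs of both ligands numbered 3 in library 1 and 4 in library 2. Lif lies at chr11:4257557-4272514 on the plus strand.

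**Figure D2:**
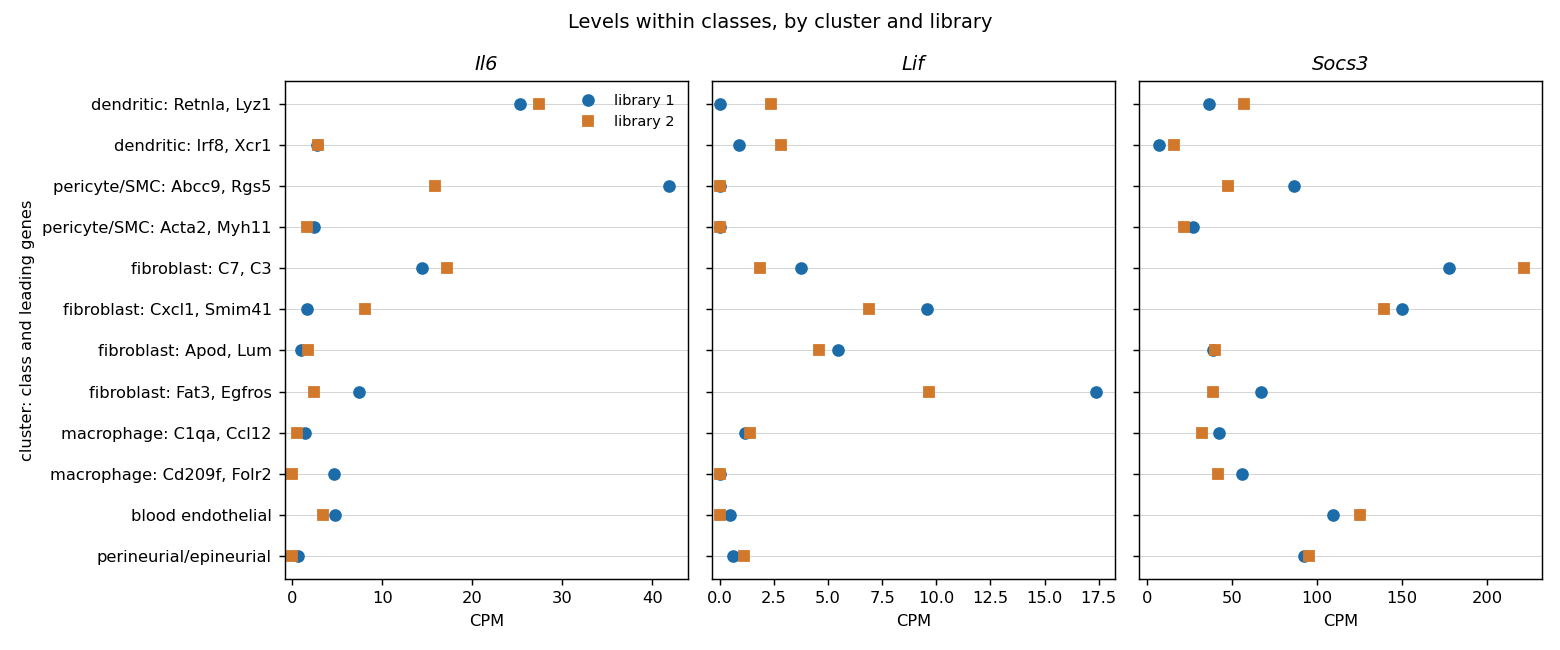
CPM of Il6, Lif and Socs3 (horizontal axes) in 12 clusters of dendritic, mural (pericyte or smooth muscle cell, SMC), fibroblast, macrophage, blood endothelial and perineurial cells, with a circle for library 1 and a square for library 2. Il6 is high in the Retnla and Lyz1, Abcc9 and Rgs5, and C7 and C3 clusters, and the 2 libraries lie apart for Il6 in the Abcc9 and Rgs5 cluster (41.9 and 15.9 CPM).

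Cntf, which encodes ciliary neurotrophic factor, was a gene of glia. Myelinating Schwann cells held 170 and 118 CPM, non-myelinating Schwann cells 130 and 123 CPM, and satellite glia, which wrap the neuronal cell bodies, 122 and 116 CPM. Malat1-high glia held 30.9 and 36.9 CPM, and all other populations held means of 2.32 to 16.3 CPM. The 3 highest were not called apart in that order (adjusted p = 0.873 and 0.559), and satellite glia were above Malat1-high glia (log2 fold change 2.01, adjusted p = 3.51e-31). Against the mean of the other populations, Cntf was higher in satellite glia by 3.78 (SE 0.10, adjusted p = 2.57e-59), in myelinating Schwann cells by 3.77 (SE 0.22, adjusted p = 5.82e-30) and in non-myelinating Schwann cells by 3.70 (SE 0.11, adjusted p = 3.17e-53) on the log2 scale. The 2 non-myelinating Schwann clusters differed, with a mean of 170 CPM in the Gfra3-led cluster and 48.5 CPM in the Car10-led cluster, and no test was made between them. The Car10-led cluster was shallower, with a median of 2940 UMIs against 6139. In the UMIs used for clustering it held 100735 CPM of Malat1, against 61456 CPM in the Gfra3-led cluster.

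Cntf counts are uncertain. Cntf lies at chr19:12763660-12765632 on the minus strand, wholly inside Zfp91, a zinc finger gene of the same strand, and 847 exonic bases belong to both genes. Zfp91 held 176 CPM in satellite glia, 164 CPM in non-myelinating and 138 CPM in myelinating Schwann cells, against 95.5 to 183 CPM over all non-neuronal classes, so it did not share the Cntf pattern. In the Gfra3-led Schwann cluster Zfp91 held 193 CPM, against 111 CPM in the Car10-led cluster, so there both genes moved together. The sources used here do not say how reads of the shared bases were assigned.

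Il6st, which encodes the shared subunit gp130, was counted in every population. It was highest in blood endothelial cells with 386 and 401 CPM (394 ± 10.6, SD, n = 2) and in lymphatic endothelial cells with 389 and 336 CPM. Perineurial or epineurial cells, which sheathe the nerve and ganglion, held 291 and 286 CPM, and fibroblasts 257 and 284 CPM. None of these 4 was called apart from its neighbour in the order (adjusted p = 0.0708 to 0.848), and fibroblasts were above Malat1-high glia, at 154 CPM (log2 fold change 1.10, adjusted p = 3.37e-26). Macrophages held 49.9 and 49.8 CPM. The neuron types were next to the lowest, with 40.7 and 29.5 CPM in the Shox2-rich type and 30.6 and 33.9 CPM in the Rxfp1-rich type, and only mast cells held less, at 9.94 CPM. Il6st lies at chr13:112464070-112510086 on the plus strand.

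Il6ra, the subunit that binds interleukin-6, was highest in myeloid cells. Macrophages held 157 and 169 CPM, dendritic cells 113 and 108 CPM, mast cells 68.5 and 85.9 CPM and lymphatic endothelial cells 67.1 and 45.4 CPM. Macrophages were above dendritic cells (log2 fold change 0.44, adjusted p = 2.18e-05), and dendritic cells above mast cells (0.90, adjusted p = 0.0211). Fibroblasts held 27.8 and 27.7 CPM, satellite glia, Malat1-high glia and non-myelinating Schwann cells between 0.40 and 0.64 CPM on average. Against the mean of the other populations Il6ra was higher in macrophages by 5.17 (SE 0.10, adjusted p = 6.77e-70) and in dendritic cells by 4.70 (SE 0.13, adjusted p = 2.27e-55) on the log2 scale. It was also called higher in mast cells (3.74, adjusted p = 9.16e-11). Outside myeloid cells, so were lymphatic endothelial cells (3.07, adjusted p = 4.21e-06) and fibroblasts (2.40, adjusted p = 1.47e-28). The Cd209f and Folr2 cluster of macrophages held a mean of 278 CPM, against 157 CPM in the larger macrophage cluster.

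Il6ra and Il6st were also counted in the same cells. In macrophages, 66.1% of cells in library 1 and 65.0% in library 2 held an Il6ra UMI, and 27.8% and 28.9% held an Il6st UMI. UMIs of both Il6ra and Il6st were held by 19.5% and 21.2%. Whether such joint shares exceed what the single shares give was not tested, here or for the pairs below. In satellite glia, at a similar depth (a median of 8732 and 8761 UMIs, against 7859.5 and 7891.5 in macrophages), 0.401% and 0.479% held an Il6ra UMI. Il6ra lies at chr3:89864059-89913196 on the minus strand. It shares 242 exonic bases with the antisense gene Gm42809, whose mean level in a population was 1.015 CPM at most.

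Lifr, the receptor subunit for leukemia inhibitory factor, was high in blood endothelium and in 1 of the neuron types. Blood endothelial cells held 450 and 423 CPM and Shox2-rich neurons 282 and 294 CPM. Malat1-high glia held 248 and 244 CPM, macrophages 240 and 247 CPM, pericytes or smooth muscle cells 206 and 177 CPM and satellite glia 151 and 156 CPM. Blood endothelial cells were above Shox2-rich neurons (log2 fold change 0.99, adjusted p = 1.38e-13), which were not called apart from Malat1-high glia (0.03, adjusted p = 0.899). Malat1-high glia and macrophages had nearly the same CPM, but the fitted log2 fold change was -0.31 (adjusted p = 1.64e-04), a sign set by the scaling factors of the sums. Macrophages were above pericytes or smooth muscle cells (0.56, adjusted p = 7.90e-09). The Cd209f and Folr2 cluster of macrophages held 473 and 582 CPM, against 229 and 228 CPM in the larger cluster. Lifr lies at chr15:7090614-7197489 on the plus strand.

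Osmr, the oncostatin M receptor subunit, was highest in vessels and connective tissue. Lymphatic endothelial cells held 114 and 209 CPM, on few cells, and blood endothelial cells 124 and 117 CPM. Pericytes or smooth muscle cells held 36.7 and 41.2 CPM, fibroblasts 32.2 and 36.0 CPM, and each of the other 11 populations a mean of 4.46 CPM or less. Blood and lymphatic endothelial cells were not called apart (adjusted p = 0.978), and blood endothelial cells were above pericytes or smooth muscle cells (log2 fold change 1.71, adjusted p = 2.92e-22). In blood endothelial cells, 48.3% and 47.2% of cells held an Osmr UMI, against 0.745% and 0.359% of satellite glia. Of the blood endothelial cells, 73.29% and 73.15% held an Il6st UMI, and 40.3% and 39.3% held UMIs of both Osmr and Il6st. Blood endothelial cells held a median of 6988 UMIs in library 1 and 7060 in library 2. Within the mural cells, the Abcc9 and Rgs5 cluster held a mean of 63.9 CPM of Osmr and the Acta2 and Myh11 cluster 25.2 CPM, the opposite order to Lifr, with 133 and 224 CPM. Osmr lies at chr15:6813577-6874969 on the minus strand, on the same chromosome as Lifr.

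The ligand of Osmr, oncostatin M, was measured as the gene Osm, one of the other cytokines of the family. Osm held 213 and 129 CPM in mast cells, 26.5 and 24.6 CPM in macrophages and a mean of 10.4 CPM or less elsewhere. Ebi3, a subunit of interleukin-27, held a mean of 56.0 CPM in macrophages and 40.6 CPM in dendritic cells. Clcf1, whose product uses the ciliary neurotrophic factor receptor, held 41.6 CPM in T cells. Il11ra1, the interleukin-11 receptor, held 341 and 335 CPM in fibroblasts and a mean of 300 CPM in perineurial or epineurial cells.

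Cntfr, the subunit that gives ciliary neurotrophic factor its receptor, was highest in satellite glia and Malat1-high glia. Lower levels were found in perineurial or epineurial cells, both neuron types and non-myelinating Schwann cells. Satellite glia held 192 and 181 CPM, Malat1-high glia 171 and 150 CPM, and perineurial or epineurial cells 79.0 and 81.0 CPM. Shox2-rich neurons held 71.2 and 75.7 CPM, Rxfp1-rich neurons 66.6 and 73.4 CPM and non-myelinating Schwann cells 64.5 and 65.5 CPM. Satellite glia were above Malat1-high glia (log2 fold change 0.42, adjusted p = 9.73e-07) and Malat1-high glia above perineurial or epineurial cells (0.90, adjusted p = 1.76e-14), while perineurial cells were not called apart from Shox2-rich neurons (0.43, adjusted p = 0.0633). Nor were Rxfp1-rich neurons called apart from non-myelinating Schwann cells (-0.01, adjusted p = 0.981). In satellite glia, 69.9% and 68.8% of cells held a Cntfr UMI, against 7.52% and 6.04% of macrophages. Of the satellite glia, 56.3% and 58.1% held an Il6st UMI, and 41.1% and 42.4% held UMIs of both Cntfr and Il6st. Cntfr lies at chr4:41657498-41697089 on the minus strand.

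In neurons Cntfr stood at a larger share of its satellite glia level than Fabp7 and Cntf did, given without a test. Fabp7, a fatty acid binding protein gene of satellite glia, was at 1.17% of its satellite glia level in the Shox2-rich type and 0.792% in the Rxfp1-rich type. Cntf was at 1.96% and 1.97%, whereas Cntfr was at 39.4% and 37.5% of its satellite glia level.

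Socs3, the inhibitor that STAT3 induces, was highest in blood endothelial cells with 109 and 126 CPM and in non-myelinating Schwann cells with 115 and 102 CPM. Fibroblasts held 102 and 107 CPM and perineurial or epineurial cells 92.4 and 95.2 CPM. Satellite glia held 21.1 and 14.7 CPM. The neuron types were lowest, with 7.63 and 2.10 CPM in Shox2-rich neurons (3 and 1 UMIs) and 2.18 and 2.82 CPM in Rxfp1-rich neurons (2 and 2 UMIs). Blood endothelial cells were above non-myelinating Schwann cells (log2 fold change 0.26, adjusted p = 0.0198), non-myelinating Schwann cells were not called apart from fibroblasts (adjusted p = 0.0588), and fibroblasts were above perineurial or epineurial cells (0.34, adjusted p = 0.00307). Within fibroblasts, Socs3 held 178 and 222 CPM in the C7 and C3 cluster and 150 and 140 CPM in the Cxcl1 and Smim41 cluster, against 38.8 and 40.3 CPM in the Apod and Lum cluster. Non-myelinating Schwann cells held a mean of 136 CPM in the Gfra3-led and 58.6 CPM in the Car10-led cluster, which has fewer UMIs per cell and more Malat1.

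Socs3 lies at chr11:117966079-117970047 on the minus strand. The 250 bases before its RefSeq start (GRCm38.p6, chr11:117969367-117969616, minus strand) are shown because Socs3 is the member that STAT3 is known to induce. Capitals mark the 1 match to TTCNNNGAA, the letters that STAT dimers bind, which starts 154 bases before the start and reads alike on both strands.
Socs3 promoter: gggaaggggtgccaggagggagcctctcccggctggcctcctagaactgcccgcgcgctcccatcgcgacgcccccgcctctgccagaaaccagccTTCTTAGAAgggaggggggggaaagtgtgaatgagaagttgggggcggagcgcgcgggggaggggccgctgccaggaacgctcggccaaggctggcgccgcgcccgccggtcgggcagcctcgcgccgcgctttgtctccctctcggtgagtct
Of 32851 promoters, 7.02% held this motif in the window, and among the 9 members Socs3 was the only gene with a match at a listed start. TGANTCA and GGANTTTCC were not found there.

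Socs3 varied across populations with the immediate early genes, which tissue dissociation is known to induce. The summed level of 23 such genes was 498 CPM in the Shox2-rich type, 1280 CPM in the Rxfp1-rich type, 2334 CPM in satellite glia, 7570 CPM in non-myelinating Schwann cells, 13750 CPM in fibroblasts and 22580 CPM in blood endothelial cells. Across the 15 populations, which share libraries and suspensions, the Pearson correlation of the log2 levels was 0.75 for Socs3 (Spearman 0.63), 0.59 for Il6ra (0.74), 0.50 for Lif (0.52), 0.43 for Il6 (0.40) and -0.65 for Cntfr (-0.72). These correlations are a description. The part of dissociation in the levels of Socs3, Il6 and Lif was not tested. Mast cells had the highest immediate early sum, 40310 CPM, with 7.61 and 61.4 CPM of Socs3, on few UMIs.

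**Figure D3:**
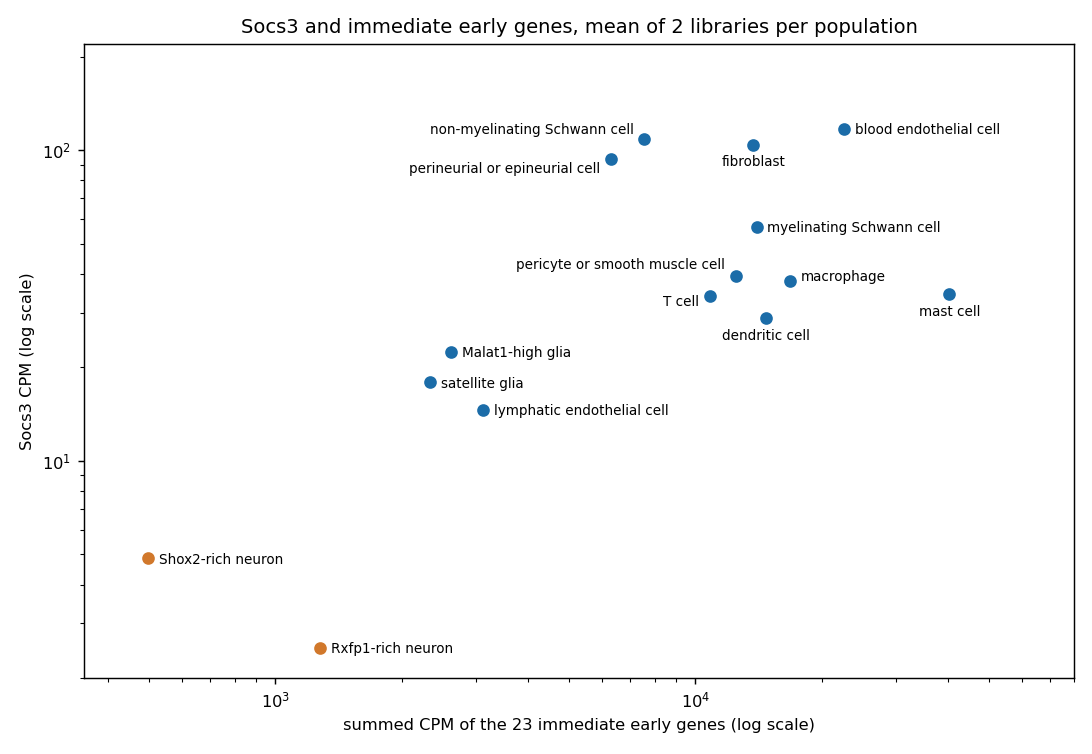
Mean Socs3 CPM of 2 libraries (vertical axis, log scale) against the summed CPM of 23 immediate early genes (horizontal axis, log scale), with 1 point for each of 15 populations and the neuron types in orange. Both neuron types lie at the lower left, satellite glia and Malat1-high glia between 2334 and 2622 CPM of immediate early genes, and blood endothelial cells at the upper right.

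The neuron types were set against the mean of the 13 non-neuronal classes, each class with equal weight. Of the 9 members 6 passed the test, 5 lower and 1 higher, while 57.1% of all genes tested passed, 26.8% lower and 30.3% higher. Of the 9, Il6 and Lif entered the test through their non-neuronal counts only and gave no usable fold change, so they cannot be counted as unchanged. Neurons had less of the shared subunit Il6st (log2 fold change -1.93, SE 0.24, adjusted p = 5.71e-12). Calls were also lower for Il6ra (-2.75, SE 0.64, adjusted p = 9.53e-05) and Osmr (-2.39, SE 0.74, adjusted p = 0.00336). The same held for Cntf (-2.79, SE 0.50, adjusted p = 8.38e-07) and Socs3 (-3.94, SE 0.41, adjusted p = 4.58e-15). Il6ra, Osmr, Cntf and Socs3 each held at most 4 UMIs in a neuron type over both libraries. They passed the low-count filter through non-neuronal classes, so their p-values are no separate support. Cntfr was higher in neurons (1.26, SE 0.17, adjusted p = 7.73e-11). That direction depends on what neurons are set against, since Cntfr is high in abundant glia: against the sum of all non-neuronal cells, the log2 fold change was -0.10 (adjusted p = 0.501).

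Lifr did not pass in that comparison (0.21, SE 0.11, adjusted p = 0.107), where the neuron types moved in opposite directions. Against the mean of the other populations, Lifr was higher in Shox2-rich neurons by 1.15 (SE 0.13, adjusted p = 5.65e-13) and lower in Rxfp1-rich neurons by 0.75 on the log2 scale (log2 fold change -0.75, SE 0.16, adjusted p = 1.91e-05). With relative log expression (RLE) size factors in place of the trimmed mean of M-values (TMM), Lifr in neurons against non-neuronal classes passed (0.58, adjusted p = 5.78e-06). That scaling moved the median of all genes to 0.25, against -0.11 with TMM, and the share of higher calls to 64.8%, against 53.1%. Against the sum of all non-neuronal cells, Lifr was lower in neurons (-0.30, adjusted p = 0.0269).

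**Figure D4:**
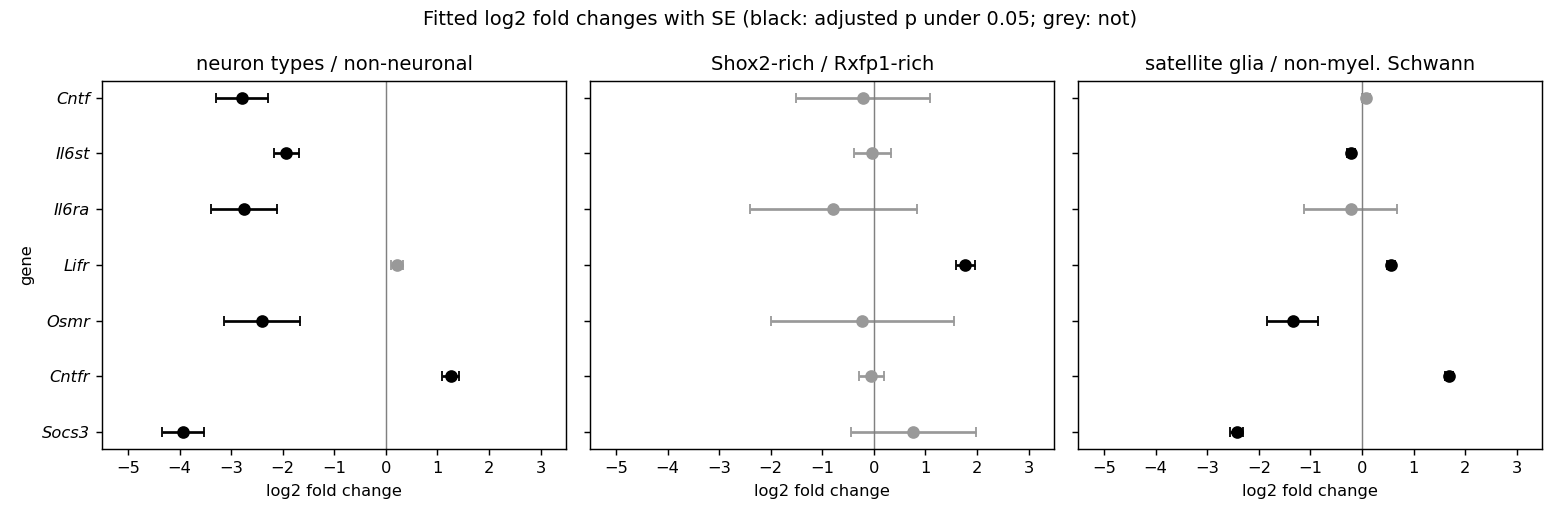
Fitted log2 fold changes (points) with SE (bars) of 7 genes in neuron types over non-neuronal classes, Shox2-rich over Rxfp1-rich neurons, and satellite glia over non-myelinating Schwann cells, in black where the adjusted p was under 0.05. Lifr stands alone in the middle panel at 1.77, and Socs3 is lowest in the left and right panels at -3.94 and -2.43.

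Between the neuron types, Lifr was the 1 member that differed. Shox2-rich neurons held 282 and 294 CPM of Lifr (111 and 140 UMIs), against 73.1 and 81.9 CPM in Rxfp1-rich neurons (67 and 58 UMIs). The log2 difference was 1.93 in library 1 and 1.84 in library 2. The fitted log2 fold change was 1.77 (SE 0.18, adjusted p = 1.36e-14), and 8.04% of all genes tested passed in this comparison. Thinned to 1500 UMIs, 27.5% and 34.1% of Shox2-rich cells held a Lifr UMI, against 6.67% and 15.2% of Rxfp1-rich cells and 6.12% and 5.26% of T cells. Before thinning, the shares were 97.5% and 97.7% of Shox2-rich cells (medians of 19031 and 21706.5 UMIs), 78.7% and 65.2% of Rxfp1-rich cells (23342 and 21495.5 UMIs) and 14.3% and 5.26% of T cells (4019 and 5118 UMIs).

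The other receptor subunits gave no difference between the neuron types beyond their error. Fold changes on the log2 scale were -0.05 for Cntfr (SE 0.24) and -0.03 for Il6st (SE 0.36), both with an adjusted p of 1. Il6ra (-0.79, SE 1.62), Osmr (-0.22, SE 1.78), Cntf (-0.21, SE 1.31) and Socs3 (0.76, SE 1.21) rested on so few UMIs that these errors span several-fold changes in either direction. A further neuron cluster of 82 cells, with intermediate Shox2 and Rxfp1 levels, held 139 and 70.4 CPM of Lifr. When these cells were added to the Shox2-rich type, which was decided with the data in view, Lifr differed by 1.22 on the log2 scale (adjusted p = 2.13e-09). Of the 23 immediate early genes, 11 were lower in Shox2-rich neurons and none was higher, while 863 of all 16519 genes tested were lower and 465 were higher. The part of the immediate early genes in the Lifr difference was not tested.

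Satellite glia were set against non-myelinating Schwann cells, both of them Sox10-positive glia. The Schwann class includes the Car10-led cluster, which is rich in Malat1, while Malat1-high glia were kept apart from satellite glia. Of the 9 members 5 passed, 2 higher and 3 lower, and 26.3% of all genes tested passed, 16.7% higher and 9.67% lower. Cntfr was higher in satellite glia, with 192 and 181 CPM, against 64.5 and 65.5 CPM in non-myelinating Schwann cells (log2 fold change 1.69, SE 0.08, adjusted p = 8.13e-34). Lifr was higher too, with 151 and 156 CPM in satellite glia against 111 and 122 CPM in non-myelinating Schwann cells (0.57, SE 0.08, adjusted p = 5.80e-09). Socs3 was lower in satellite glia, with 21.1 and 14.7 CPM against 115 and 102 CPM in non-myelinating Schwann cells (-2.43, SE 0.13, adjusted p = 7.86e-33). Beside Socs3, 22 of the 23 immediate early genes and 7 of 17 tested STAT3 target genes were lower in satellite glia, and none of either list was higher. The part of dissociation in the Socs3 difference was not tested.

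Il6st and Osmr were lower in satellite glia by smaller margins. Il6st gave a fitted log2 difference of -0.21 (SE 0.08, adjusted p = 0.0451), which was no longer called with all UMIs (adjusted p = 0.0799), without the library as a block (0.174) or with cells of at least 3000 UMIs (0.120). Osmr, with 1.31 and 0.675 CPM in satellite glia against 3.11 and 2.72 CPM in non-myelinating Schwann cells, gave -1.34 on the log2 scale (SE 0.50, adjusted p = 0.0335), which was not called with cells of at least 3000 UMIs (adjusted p = 0.0503). Cntf did not pass (0.08, SE 0.08, adjusted p = 0.559). When Malat1-high glia were added to satellite glia, also decided with the data in view, Cntf was lower in satellite glia (-0.35, adjusted p = 3.83e-04) and Il6st was not called (adjusted p = 0.317). The share of higher calls over all genes was 63.3% with TMM and 46.7% with RLE size factors.

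**Figure D5:**
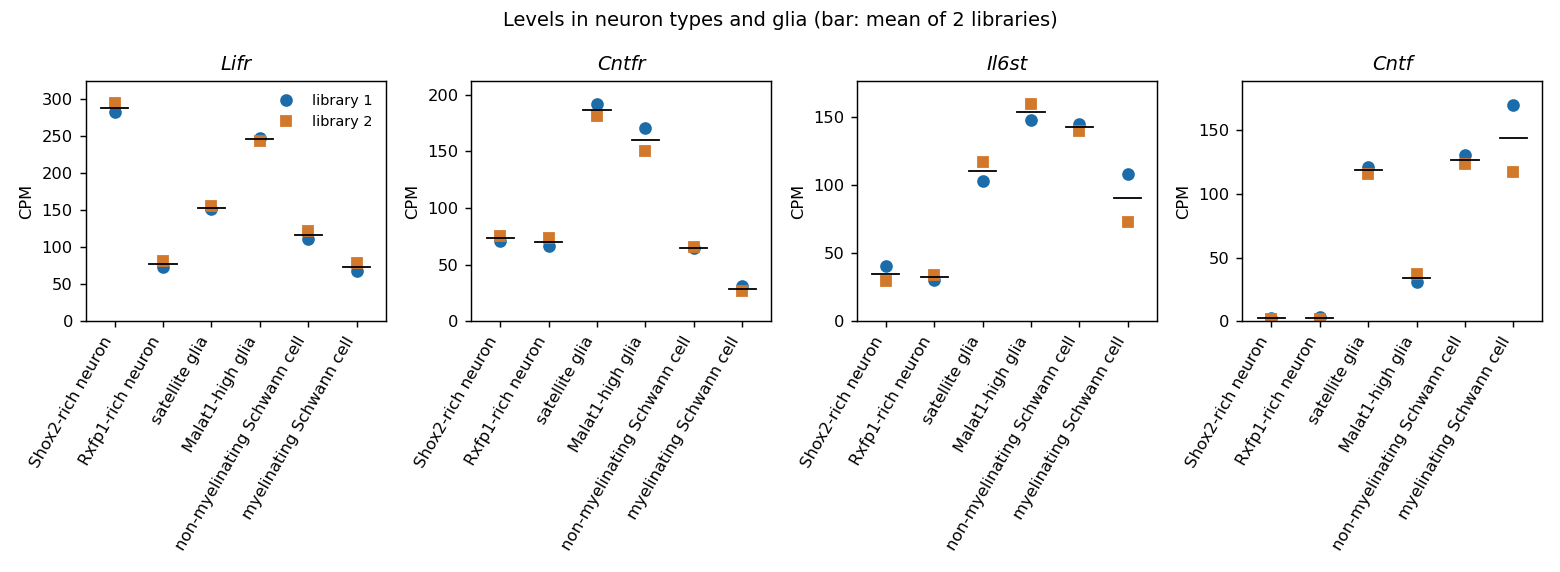
CPM of Lifr, Cntfr, Il6st and Cntf (vertical axes, each from 0) in both neuron types and 4 glial populations, with a circle for library 1, a square for library 2 and a bar for their mean. Lifr is near 288 CPM in the Shox2-rich type and 77.5 CPM in the Rxfp1-rich type, while Cntfr, Il6st and Cntf lie close together in these types.

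Of the satellite glia, 809 cells formed a cluster led by interferon-stimulated genes, and 2607 did not. Of the 9 members, 5 had enough UMIs to be tested between them, 2 of these passed, and 8.04% of all genes tested passed. Cntf held 110 and 93.5 CPM in interferon-responding satellite glia, against 125 and 122 CPM in other satellite glia (log2 fold change -0.30, SE 0.09, adjusted p = 0.0415). Cntfr held 159 and 164 CPM in interferon-responding glia, against 201 and 185 CPM in other satellite glia (-0.28, SE 0.08, adjusted p = 0.0164). Both were called lower on 4 sums with 1 residual degree of freedom, and neither was called without the library as a block (adjusted p = 0.131 and 0.108) or in DESeq2 (0.881 and 0.692). Socs3 held 29.3 and 17.8 CPM in interferon-responding glia, against 18.8 and 13.9 CPM in other satellite glia, and was not called (0.51, SE 0.19, adjusted p = 0.122), although it was with all UMIs (0.39, adjusted p = 0.0401). In the same cells Stat3 was higher by 0.70 (SE 0.10, adjusted p = 2.31e-05) and Socs1, an inhibitor that interferon induces, by 2.47 (SE 0.37, adjusted p = 3.75e-05) on the log2 scale.

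The other genes of the pathway were described by lists, set beside the 57.1% of all genes that passed in neuron types against non-neuronal classes, 30.3% higher and 26.8% lower, and a median log2 fold change of -0.11 over all genes. Of 12 JAK, STAT and adaptor genes, 6 were lower, 1 was higher and 5 did not pass, with a median of -0.89. The lowest were Gab1, an adaptor of receptor signalling (-2.79, SE 0.30, adjusted p = 3.55e-14), and Stat5a (-2.67, SE 0.53, adjusted p = 5.66e-06), and the kinase gene Tyk2 was higher (0.64, SE 0.24, adjusted p = 0.0166). Stat3 held 38.2 CPM in the Shox2-rich type and 52.8 CPM in the Rxfp1-rich type, against 477 CPM in blood endothelial cells. Of 17 tested STAT3 target genes, 9 were lower and none was higher, with a median of -1.85. The lowest were Ccl2, a monocyte chemokine (-5.29, SE 1.0, adjusted p = 2.55e-06), and Cebpd, a transcription factor of the acute phase (-4.03, SE 0.30, adjusted p = 3.82e-23).

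Of 11 other feedback inhibitors, 3 were lower and 2 higher, with a median of -0.27. Lowest were Ptpn6, a phosphatase of blood cells (-4.85, SE 1.04, adjusted p = 3.02e-05), and Cish (-1.90, SE 0.55, adjusted p = 0.00168), and Socs6 (1.21, SE 0.18, adjusted p = 8.91e-09) and Socs7 (0.97, SE 0.19, adjusted p = 2.90e-06) were higher. Of 3 other receptors tested, Il31ra (-2.59, SE 0.26, adjusted p = 1.68e-15) and Il11ra1 (-1.88, SE 0.24, adjusted p = 2.34e-11) were lower, and of 7 other cytokines tested only Ctf2 passed, as higher (2.76, SE 1.03, adjusted p = 0.0166), on a mean of 4.65 CPM in the Shox2-rich type and 2.73 CPM in the Rxfp1-rich type. Of the immediate early genes all 23 were lower, led by Egr2 (-5.51, SE 1.0, adjusted p = 9.16e-07) and Gadd45b (-5.14, SE 0.41, adjusted p = 3.07e-21). Of 15 interferon-stimulated genes 14 were lower, led by Isg15 (-4.83, SE 0.25, adjusted p = 2.34e-34) and Ifit3b (-4.02, SE 0.50, adjusted p = 9.84e-12). The part of these other signals in the levels of the STAT3 targets was not tested.

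The last list held 8 cholinergic and peptide genes that the ligands are known to raise in cultured sympathetic neurons. Of these, Chat, Slc18a3, Vip and Tac1 had no UMI in either neuron type, and 3 of the 8 were tested. Gal, which encodes galanin, was higher in neuron types than in non-neuronal classes (1.31, SE 0.15, adjusted p = 1.09e-13), with 122 and 58.9 CPM in the Shox2-rich type and 93.8 and 67.7 CPM in the Rxfp1-rich type. None of the 3 passed the test between the neuron types. There, Socs2 was lower in Shox2-rich neurons (-3.04, SE 0.36, adjusted p = 1.94e-11), Irs1 was higher (2.61, SE 0.84, adjusted p = 0.0344) and Shc1 was lower (-1.16, SE 0.33, adjusted p = 0.00944). Of 17 STAT3 targets 3 were lower, while 863 of all 16519 genes tested were lower and 465 were higher.

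Genes with the most similar pattern over the 15 populations were found by the Pearson correlation of log2(mean CPM + 1), given without a test. Among the genes most like Cntf were Cadm4 (0.96) and Cnp (0.96), which are genes of myelin and glia. Cntfr was most like Camk2d (0.91), Wrb (0.90) and Gm46218 (0.90), and Lifr like 3110082I17Rik (0.90), Nos1ap (0.81) and Edc3 (0.81). Osmr was most like Stc1 (0.93), Eng (0.91), an endothelial coreceptor gene, and Enpp3 (0.91). Il6st was most like Plat (0.89), Card10 (0.88) and 2510009E07Rik (0.87), Il6ra like Snap23 (0.90), Eif4e (0.89) and Tiparp (0.88), and Socs3 like Tsc22d3 (0.88), Fmo5 (0.87) and 1700123O20Rik (0.86). The means of Il6 and Lif stayed below 20 CPM in each of the 15 populations, the minimum set for this measure, and no similar genes are given for them.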

How the data were processed

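The deposited values are raw counts of UMIs per gene and cell barcode, 1 table for each library; the submitters' processing notes name Cell Ranger 6.1.2 and mm10. The sources used here do not say whether introns or strand were counted or how barcodes were filtered, and no barcode in the tables had under 1501 or over 44898 UMIs.

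The cells kept had 500 genes or more, 1000 UMIs or more and a mitochondrial share under 20%, and the Scrublet method in scanpy 1.11.5 marked 561 doublets (4.455%) in library 1 and 638 (5.196%) in library 2, which were removed. The UMIs of a cell were divided at random into 2 sets, with probability 0.5. One set was used for Leiden clustering (leidenalg 0.10.2, 3000 variable genes, 30 principal components, 15 neighbours, resolution 1) without 71 genes of the pathway lists, and the other was used for levels and tests. Of 25 clusters, 1 of 101 cells stayed unnamed. Neurons were clustered again without Shox2 and Rxfp1 and called rich in either where its scaled level exceeded the other's by 0.5 in both libraries.

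UMIs were summed per library and population (32 sums), filtered with filterByExpr, scaled by TMM and fitted in edgeR 4.0.16 (R 4.3.3) by its quasi-likelihood method. The model held a term for the library as a block, which left 15 residual degrees of freedom, and p-values were adjusted over all genes by Benjamini-Hochberg. The block comes from the design, since all populations of a library come from the same suspension. Scripts were tested on simulated data. Errors marked ± are SD over 2 libraries. Intervals and limits cover counting error only.

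The members, lists and tests were chosen with earlier results of these data known. All 9 members were named, with the 2 genes of each list that changed most in each direction between neuron types and non-neuronal classes, and the 3 genes most similar to each member. Some genes that these rules name are not reported here. Genes of the lists in other comparisons, and single clusters, were named after their values were seen. Positions are from GENCODE M21, and promoter sequences from RefSeq. Alternatives were DESeq2 1.42.0, RLE size factors, no filter, no block, all UMIs, deeper cells, kept doublets and other references. Protein sequences were not used here.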

Additional observations from a re-analysis of the deposited data

How the results depend on the processing

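Each of the 5 sets of member calls was recomputed under the alternatives named above. The counts of members below are given without a share over all genes, which was not computed for most alternatives. Without the library as a replicate block, calls numbered 86 in each population against the mean of the others, 6 in neuron types, 1 between the neuron types, 4 in satellite glia against non-myelinating Schwann cells (5 with the block) and 0 in interferon-responding satellite glia (2 with the block). DESeq2 also gave 0 in that last comparison. There, an unadjusted p under 0.05 was reached by 3 of 5 tested members in edgeR without the block (4 with it) and by 0 in DESeq2. Cells of at least 3000 UMIs gave 3 in satellite glia against non-myelinating Schwann cells. With 1 library left out, no test is possible, and the members that kept the sign of their call numbered 85 of 86 in each population, 6 in neuron types, 1 between neuron types, 5 in satellite glia and 2 in interferon-responding glia, with either library. The call that changed sign was Lif in dendritic cells on library 1 alone and Lif in mast cells on library 2 alone. Kept doublets gave a cluster of 800 cells led by interferon-stimulated genes. The naming rule left it unnamed rather than as satellite glia, so the comparison of interferon-responding glia has no value there. Cntfr in neuron types turned to -0.10 (adjusted p = 0.501) against the sum of other cells, where Lifr was called lower (-0.30, adjusted p = 0.0269). Lifr was called higher there with RLE size factors, no filter, all UMIs or DESeq2 (0.21 to 0.58). Against sums of other cells, calls in single populations numbered 107, 30 higher and 77 lower, with no share over all genes computed. Thinning to 1500 UMIs moved all 18 shares of cells computed for the highest population of each member. Depth limits Il6 and Lif everywhere, and Il6ra, Osmr, Cntf and Socs3 in neurons, where a few UMIs decide each value. The bound on UMIs per barcode may leave out large neurons.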
